A study of Mus musculus with 12 samples.

Results

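Resident Kupffer cell genes were described in mouse liver through 10 members: Clec4f, Vsig4, Timd4, Marco, Cd5l, Adgre1, Csf1r, C1qa, C1qb and C1qc. The members were picked by symbol among 12284 named genes of the deposited expression table, and all 10 were measured. Adgre1 stands in the table under its older symbol, Emr1, and was matched through the RefSeq synonyms. The 12 libraries of polyadenylated liver RNA came from 6 control livers (WT) and 6 livers with hepatocyte loss of Acly and Acss2 (double knockout, DKO). All mice were Acly f/f and Acss2 f/f, with both genes floxed. At an age of 6 to 8 weeks they received an adeno-associated virus, AAV8-TBG-Cre for DKO and AAV8-TBG-GFP for WT, and from 1 week later they ate a Western diet for 6 weeks. The TBG promoter is active in hepatocytes, so Cre was not directed to the macrophages that these genes mark, and the action of Cre or GFP cannot be told apart from the loss of the 2 genes. Values are log2 CPM, read counts scaled to the size of the library on a log2 scale, in RNA of whole liver, where more cells of a type and more RNA per cell cannot be told apart.

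Kupffer cells are the macrophages that reside in the sinusoids of the liver. They arise largely from embryonic precursors, depend on signalling through the CSF1 receptor, and clear bacteria, complement-coated particles, aged blood cells and dying cells from the portal blood. In steatotic liver disease, embryonic Kupffer cells can be lost and replaced by cells that derive from blood monocytes. Of the members, Clec4f, Vsig4, Timd4, Marco and Cd5l are used as markers of resident Kupffer cells. Timd4 in particular is used for the embryonic ones, while Adgre1, Csf1r and the C1q genes are shared with other macrophages.

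All 10 members had a higher mean in DKO than in WT, as did 50.8% of all genes, and none passed the test over all genes. The differences ran from 0.36 on the log2 scale (Clec4f) to 1.70 (Marco), with a median of 0.56, against a median of 0.0041 over all 12284 genes. By limma, 0 of 10 members had an adjusted p below 0.05, a level that 1.74% of all genes reached. At an unadjusted p below 0.05, 10 of 10 members were higher in DKO, against 7.95% of all genes. That count was 6 without WT 3, WT 5, DKO 2 or DKO 5, 7 without WT 2 or WT 4, and 8 without DKO 4, without the mean trend, with library medians subtracted or with the replicate number as a block. The WT and DKO values overlapped for each of the 10 members, while 0.79% of all genes were higher in DKO with no overlap. Members vary together between libraries, so these counts are not 10 separate observations. The members were also chosen with earlier results of these data known, so the counts are no independent test.

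The library WT 1 stood apart from the other controls in these genes. It was the highest WT library for all 10 members and lay above the 12-library mean of each, by 0.41 on average, whereas WT 2, WT 3, WT 4 and WT 5 lay below that mean for every member. It also had the highest level of both targeted genes, 9.35 log2 CPM for Acly and 7.45 for Acss2. Within DKO, the libraries DKO 3 and DKO 6 were lowest on average, with 3 and 1 of the 10 members above the 12-library mean, against 9 to 10 in the other 4. Without WT 1, 6 of the 10 members passed the limma test (Timd4, Marco, Cd5l, Adgre1, C1qa and C1qc), and 373 of all genes against 214 with it. The labels give no reason to leave this library out, so values below are for all 12 libraries unless stated.

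**Figure D1:**
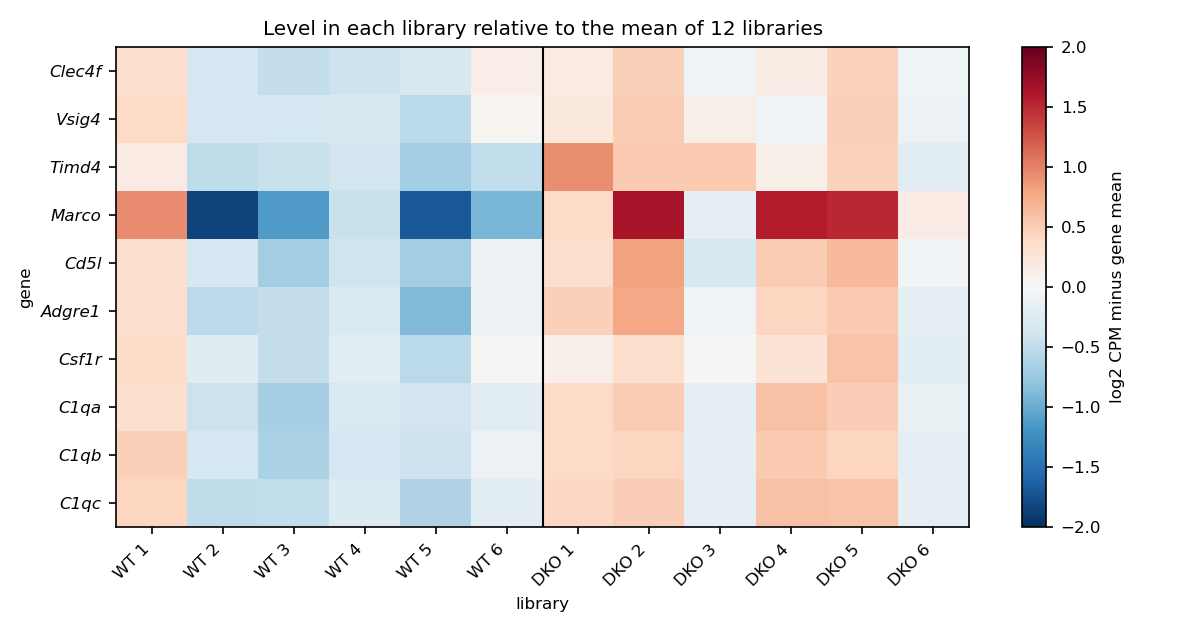
Level of each member (rows) in each library (columns) as log2 CPM minus the gene's mean over 12 libraries, red above and blue below. WT 1 is red for all 10 members, and DKO 3 and DKO 6 are near or below the mean for most of them.

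Loss of the targeted transcripts was seen in the same libraries. Acly, ATP citrate lyase, measured 6.56 to 9.35 log2 CPM in WT and 4.42 to 6.60 in DKO, with a difference of -2.51 (SE 0.46, limma adjusted p = 0.0165). For Acss2, the acetyl-CoA synthetase, the ranges were 6.12 to 7.45 and 3.59 to 5.74 (difference -2.18, SE 0.33, limma adjusted p = 0.00571). Acss2 separated the groups, and for Acly DKO 1 lay just above the lowest WT library. Alb, the albumin of hepatocytes, had means of 15.67 log2 CPM in WT and 15.44 in DKO, among the highest levels of the table.

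**Figure D2:**
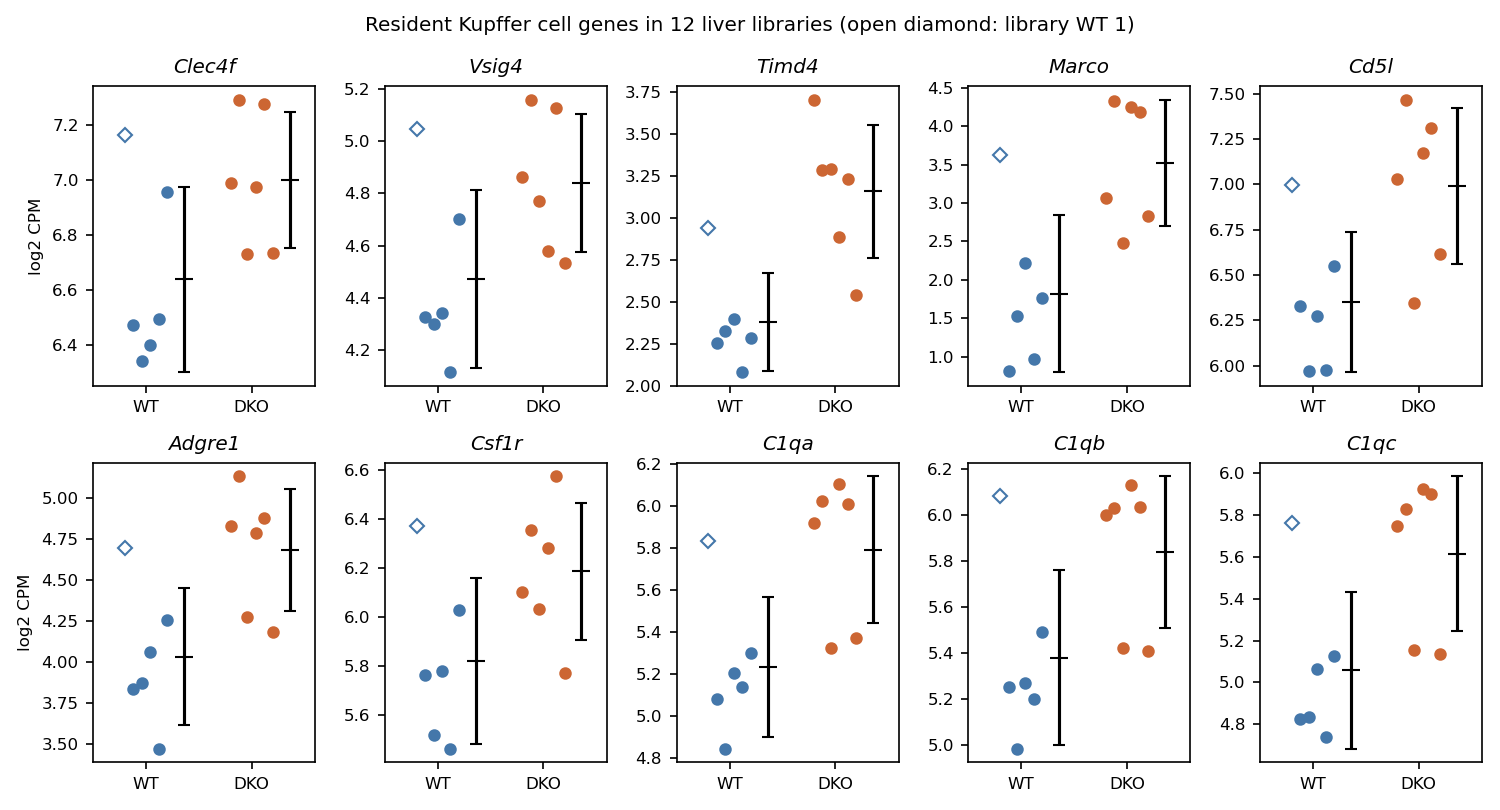
Log2 CPM of the 10 members in each library, WT in blue and DKO in orange, with the mean and SD (n = 6 each) beside the points; each panel has its own axis. The open diamond, WT 1, is the highest WT library in all 10 panels, and the groups overlap in each.

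Marco encodes a class A scavenger receptor with a collagen-like stalk that binds bacteria and other particles. Its level in WT ran from 0.82 to 3.62 log2 CPM (median 1.65), and in DKO from 2.47 to 4.33 (median 3.62). All 6 DKO libraries lay above the other 5 WT libraries, and WT 1, at 3.62, lay among the DKO values. The mean was 1.82 ± 1.02 in WT and 3.52 ± 0.82 in DKO (mean ± SD, n = 6 per group), a 3.25-fold difference with a 95% interval from 1.63 to 6.48. It did not pass over all genes (log2 difference 1.70, SE 0.46, limma adjusted p = 0.0831; exact permutation p = 0.0152). Without WT 1 the log2 difference was 2.06 (SE 0.38, limma adjusted p = 0.0131).

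Timd4 encodes a receptor for phosphatidylserine, the lipid that dying cells expose, and is a marker of embryonic Kupffer cells. It had the smallest p of the 10 members. Its level was 2.08 to 2.94 log2 CPM in WT (median 2.30) and 2.54 to 3.70 in DKO (median 3.26). Of the 6 DKO libraries, 4 exceeded WT 1 and all exceeded the other controls. The means were 2.38 ± 0.29 and 3.16 ± 0.40 (mean ± SD, n = 6 per group), a 1.71-fold difference (log2 difference 0.78, SE 0.20, limma adjusted p = 0.0624; exact permutation p = 0.00649). Without WT 1 the limma adjusted p was 0.0255, and without DKO 6, the lowest DKO library for this gene, it was 0.0241.

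Clec4f and Vsig4 differed less. Clec4f, a lectin that in mice marks Kupffer cells and binds glycans ending in galactose or N-acetylgalactosamine, ran from 6.34 to 7.16 log2 CPM in WT (median 6.48) and from 6.73 to 7.29 in DKO (median 6.98). WT 1 and WT 6 lay among the DKO libraries, and the other 4 controls lay below all of them. The 1.29-fold difference did not pass (log2 difference 0.36, SE 0.15, limma adjusted p = 0.256; exact permutation p = 0.0628). Vsig4, the receptor by which Kupffer cells take up particles coated with complement C3 fragments, measured 4.11 to 5.05 in WT (median 4.33) and 4.53 to 5.16 in DKO (median 4.82). Its difference was of the same size, 1.29-fold (log2 difference 0.37, SE 0.16, limma adjusted p = 0.278; exact permutation p = 0.0693). The same 2 controls, WT 1 and WT 6, were the highest WT libraries. The 95% intervals of these fold differences ran from 1.02 to 1.62 for Clec4f and from 1.01 to 1.64 for Vsig4.

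Cd5l encodes a secreted scavenger protein of macrophages that circulates bound to IgM. It ranged from 5.97 to 6.996 log2 CPM in WT (median 6.30) and from 6.34 to 7.47 in DKO (median 7.10). WT 1 lay above DKO 3 and DKO 6 and below the other 4 DKO libraries. The 1.56-fold difference did not pass (log2 difference 0.64, SE 0.21, limma adjusted p = 0.126; exact permutation p = 0.0238).

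Adgre1 encodes F4/80, an adhesion receptor long used to stain mouse macrophages. It measured 3.47 to 4.70 log2 CPM in WT (median 3.97) and 4.18 to 5.13 in DKO (median 4.81). In 4 of 6 DKO libraries it exceeded every control, and DKO 3 and DKO 6 were the exceptions. The difference was 1.57-fold (log2 difference 0.65, SE 0.20, limma adjusted p = 0.119; exact permutation p = 0.0173). Csf1r encodes the receptor for CSF1 and IL-34, on which macrophages depend for survival. Its level was 5.46 to 6.37 in WT (median 5.77) and 5.77 to 6.57 in DKO (median 6.19), and 1 DKO library, DKO 5, exceeded WT 1. The 1.29-fold difference did not pass (log2 difference 0.37, SE 0.16, limma adjusted p = 0.276; exact permutation p = 0.0887).

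C1qa, C1qb and C1qc encode the 3 chains of C1q, which starts the classical complement pathway and is made largely by macrophages. C1qa ran from 4.84 to 5.83 log2 CPM in WT (median 5.17) and from 5.32 to 6.10 in DKO (median 5.96). C1qb ran from 4.98 to 6.08 in WT (median 5.26) and from 5.41 to 6.13 in DKO (median 6.01), and C1qc from 4.74 to 5.76 (median 4.95) and from 5.14 to 5.92 (median 5.79). In each of the 3, DKO 3 and DKO 6 were the lowest DKO libraries and WT 1 lay above both. The differences were 1.47-fold for C1qa (log2 0.56, SE 0.18), 1.37-fold for C1qb (0.46, SE 0.18) and 1.47-fold for C1qc (0.56, SE 0.19). None passed, with limma adjusted p of 0.119, 0.224 and 0.153, and exact permutation p of 0.0152, 0.0476 and 0.0216.

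**Figure D3:**
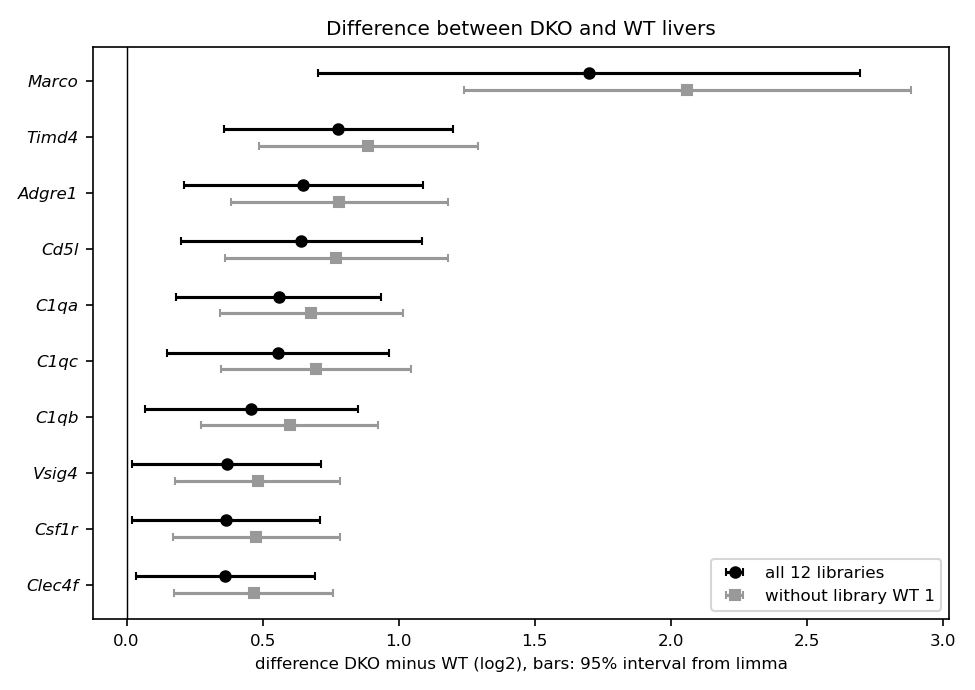
Difference of DKO minus WT (log2) for each member with its 95% interval from limma, black for all 12 libraries and grey without WT 1. All 10 differences are above 0, from 0.36 to 1.70 with all libraries, and each is larger without WT 1.

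Among the 3 C1q chains, C1qa and C1qb kept the closest ratio. C1qa minus C1qb stayed between -0.25 and -0.0071 log2 units over the 12 libraries, a range of 0.24. The range was 0.39 for C1qa minus C1qc and 0.32 for C1qb minus C1qc, and pairs outside C1q came near it, such as Clec4f and Csf1r at 0.41. With the group means removed, C1qa and C1qb correlated at r = 0.99, C1qb and C1qc at 0.97 and C1qa and C1qc at 0.96 (Pearson, 12 libraries, given as a description, since all genes of a library share its RNA and its scaling). Over all 45 pairs of members r ran from 0.43 to 0.99 with a median of 0.85, and 9 pairs exceeded 0.9. Timd4 and Marco, at 0.43, were the least alike pair, and r was 0.14 for them without WT 1. The median over pairs was 0.78 without that library. For these values without WT 1, the group means removed were still those with WT 1 included.

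Genes outside the members with the most similar pattern were macrophage genes. The highest correlations with the mean of the members, group means removed, included those of Lgmn (legumain, a lysosomal protease; r = 0.97 over 12 libraries), Cd68 (a lysosomal glycoprotein; 0.95), Laptm5 (a lysosomal membrane protein of blood cells; 0.95) and Fcer1g (the signalling chain of Fc receptors; 0.94). Without WT 1 these were 0.91 to 0.97, with the group means still taken with WT 1 included. None of these 4 was called by limma, and their log2 differences lay between 0.40 (Lgmn) and 0.69 (Cd68).

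The members were next compared with Adgre1 in the same library, so each ratio depends on that 1 reference gene as well as on the member. Marco was higher relative to Adgre1 in DKO. Its log2 ratio to Adgre1 ran from -3.02 to -1.08 in WT, with WT 1 highest, and from -1.80 to -0.54 in DKO. The log2 ratio differed by 1.05 (SE 0.33, limma adjusted p = 0.0311; exact permutation p = 0.0195), in a fit where 35.6% of all genes were called. That call was lost without WT 2, WT 3, WT 5, DKO 1, DKO 2, DKO 4 or DKO 5 (highest adjusted p 0.0797).

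None of the other 8 members was called relative to Adgre1 by limma, and 0 of these 8 had an unadjusted limma p below 0.05, against 57.1% of all genes. Adgre1 itself was 0.65 higher in DKO on the log2 scale, so genes that did not change fall relative to it. That raises this share and the 35.6% above, so the 0 of 8 is not read as a result about the members. Clec4f, Vsig4 and Csf1r were lower relative to Adgre1 in DKO by 0.29, 0.28 and 0.28 on the log2 scale. Their 95% intervals by limma included 0 (-0.74 to 0.17, -0.75 to 0.18 and -0.74 to 0.17), while the exact permutation p, not adjusted over the 9 ratios, was 0.0346, 0.0433 and 0.0260. Cd5l kept its ratio to Adgre1 most closely, 2.32 ± 0.16 in WT and 2.31 ± 0.15 in DKO (mean ± SD, n = 6 per group; 95% interval of the difference -0.45 to 0.44). Limma moves each variance toward that of all ratios to Adgre1. Its intervals for Cd5l, Clec4f, Vsig4 and Csf1r are therefore wider than their own spread implies, with SE of 0.22 to 0.23. For Timd4 and the C1q chains the differences of the ratio lay between -0.19 (C1qb) and 0.13 (Timd4).

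**Figure D4:**
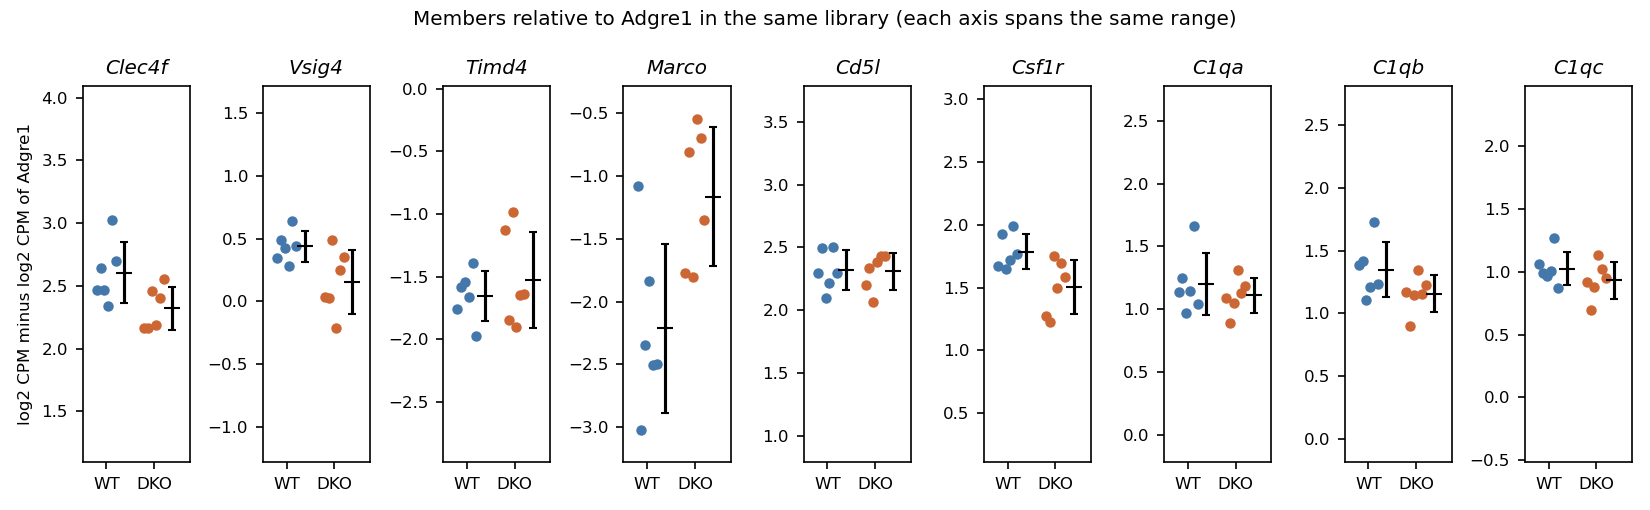
Log2 CPM of each member minus that of Adgre1 in the same library, WT in blue and DKO in orange, with mean and SD (n = 6 each); every axis spans the same number of log2 units. Marco is higher in DKO (difference 1.05), while Clec4f, Vsig4 and Csf1r lie lower by 0.28 to 0.29 with overlapping groups.

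The promoters of these genes are shown for Marco, the largest difference, Timd4, the smallest p, Clec4f, the smallest difference, and the neighbours C1qb and C1qc, which varied together. Promoters of 7 of the 10 members were matched in the RefSeq table used here (GRCm38.p6). The deposited values belong to another build (GRCm39), so the positions are those of RefSeq and not of the files. In the RefSeq order along chromosome 4, C1qb, C1qc and C1qa are direct neighbours among protein-coding genes. Each sequence is the 200 bases before the start of the gene, on its own strand. Capitals mark the core of the PU.1 motif, GAGGAA or TTCCTC. PU.1, encoded by Spi1, is a transcription factor of macrophages.
Marco (chr1:120505025-120505224, minus strand): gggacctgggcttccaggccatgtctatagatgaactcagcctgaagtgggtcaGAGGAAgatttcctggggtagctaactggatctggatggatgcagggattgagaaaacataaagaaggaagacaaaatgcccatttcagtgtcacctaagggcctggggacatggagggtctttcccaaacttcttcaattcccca
Timd4 (chr11:46810599-46810798, plus strand): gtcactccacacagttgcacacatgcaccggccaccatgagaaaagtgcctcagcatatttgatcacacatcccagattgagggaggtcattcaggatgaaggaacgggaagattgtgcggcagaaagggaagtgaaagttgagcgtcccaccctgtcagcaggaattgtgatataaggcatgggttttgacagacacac
Clec4f (chr6:83656117-83656316, minus strand): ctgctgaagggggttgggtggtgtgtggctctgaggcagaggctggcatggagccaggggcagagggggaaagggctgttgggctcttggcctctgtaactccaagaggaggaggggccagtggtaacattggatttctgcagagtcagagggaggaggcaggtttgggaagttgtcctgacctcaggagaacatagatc
C1qb (chr4:136886201-136886400, minus strand): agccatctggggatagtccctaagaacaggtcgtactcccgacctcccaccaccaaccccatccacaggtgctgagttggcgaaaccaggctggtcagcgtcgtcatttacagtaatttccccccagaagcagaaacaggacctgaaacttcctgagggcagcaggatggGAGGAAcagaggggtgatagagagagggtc
C1qc (chr4:136892915-136893114, minus strand): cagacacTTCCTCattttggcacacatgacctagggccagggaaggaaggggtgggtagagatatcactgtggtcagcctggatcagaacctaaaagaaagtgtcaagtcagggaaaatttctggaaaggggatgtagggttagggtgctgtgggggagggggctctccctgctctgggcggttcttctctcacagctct
Over the 250 bases before the start, on both strands, GAGGAA was found in 5 of 7 member promoters (Marco, Cd5l, C1qb, C1qc and Vsig4), against 23.3% of 32851 mouse promoters. Neither Clec4f nor Timd4 held it. In Marco it lay 146 to 141 bases before the start, in C1qb 30 to 25 bases and in C1qc 193 to 188 bases before it. The nuclear receptor core AGGTCA was found in Clec4f, Timd4 and C1qc (14% of all promoters), and the MAF core TGCTGA in Cd5l, C1qb, Clec4f and Timd4 (16.1%). The E-box CANNTG, its own reverse complement, was found in 4 of 7 (66.2%), CCAAT in Clec4f and Timd4 (33.8%), and AP-1 (TGANTCA) and TATAAA in 0 of 7 (6.75% and 12.4%). In C1qb an E-box overlapped the MAF core, and in C1qc another overlapped AGGTCA. These matches are letters in a window, not measured binding.

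Genes of macrophages in general were higher in DKO alongside the members. Of 14 pan-macrophage genes 14 were higher, with a median log2 difference of 0.62, and 1 rose. It was Lyz2, the macrophage lysozyme, from 5.43 ± 0.35 to 6.38 ± 0.46 log2 CPM (mean ± SD, n = 6 per group; log2 difference 0.95, SE 0.21, limma adjusted p = 0.0357). WT 1 was again the highest control for Lyz2, at 6.07, above DKO 3 and DKO 6. Its call was lost without any of WT 2 to WT 6, DKO 1, DKO 2, DKO 4 or DKO 5 (adjusted p up to 0.0865), and without the mean trend (0.0649). Mpeg1, a pore-forming protein of phagocytes, and Cybb, a subunit of the NADPH oxidase, had log2 differences of 0.84 and 0.65 (limma adjusted p = 0.0532 and 0.104).

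Genes of recruited monocytes and of lipid-associated macrophages had a larger median difference, 1.13. All 17 measured were higher in DKO, 7 rose, and for 6 the groups did not overlap, against 50.8%, 0.619% and 0.79% of all genes. Gpnmb, a glycoprotein of lipid-laden macrophages, lay between -3.26 and -0.37 log2 CPM in WT, 3 of these libraries being at the table's lowest value, and between 1.17 and 3.45 in DKO (limma adjusted p = 0.000851). Cd63, a tetraspanin of lysosomes, rose from 1.44 ± 0.24 to 2.68 ± 0.30 (mean ± SD, n = 6 per group; 2.36-fold, limma adjusted p = 0.00397), and Lgals3, galectin-3, from 2.02 ± 0.33 to 3.15 ± 0.38 (2.19-fold, limma adjusted p = 0.0144). These 3, named for the smallest p of the list, separated the groups, WT 1 included. For Itgax, of the same list, the groups overlapped, as they did for each of the members. The summed level of this list was 84.1 to 163.7 CPM in WT, highest in WT 1, and 148.8 to 317.8 in DKO. For the 5 resident Kupffer cell genes the sum was 171.3 to 324.0 in WT and 230.1 to 399.5 in DKO. Both lists were chosen with earlier results of these data known, and the difference between them was not tested.

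Other genes listed for Kupffer cell identity did not share the members' direction as a group. In RNA of whole liver, the part of each that came from Kupffer cells is not known. Of 17 measured, 8 were higher and 9 lower in DKO, with a median log2 difference of -0.01, and limma called 0 (4 at an unadjusted p below 0.05, each higher). The members of this list with the smallest p were Hmox1, heme oxygenase (log2 difference 0.73, limma adjusted p = 0.0622), Folr2, a folate receptor of resident macrophages (0.61, adjusted p = 0.112), and Clec1b, the podoplanin receptor (0.51, adjusted p = 0.119). Without WT 1, Hmox1 and Folr2 had adjusted p of 0.0361 and 0.00929. Nr1h3, named after its value was seen, encodes the nuclear receptor LXR-alpha of Kupffer cells and had a log2 difference of -0.13 (limma adjusted p = 0.391); hepatocytes express it as well.

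Around the CSF1 receptor, 6 of 11 genes of its ligands and signalling were higher and 5 lower in DKO, and 1 rose. At an unadjusted limma p below 0.05, 3 were higher and 1 was lower. The summed level of the list was 994 to 1315 CPM in WT and 730 to 1034 in DKO. Pik3cd, the leukocyte PI3-kinase delta catalytic subunit, rose, with means of 2.14 ± 0.28 and 3.07 ± 0.47 log2 CPM (mean ± SD, n = 6 per group; 1.91-fold, limma adjusted p = 0.0444), a call lost without any 1 of 10 libraries (WT 1 and DKO 6 were the exceptions; adjusted p up to 0.0998), without the mean trend (0.0589) and with quantile normalization (0.0710). Spi1 had a log2 difference of 0.61 (limma adjusted p = 0.155). The ligand Csf1 differed by -0.16 (SE 0.21, limma adjusted p = 0.758).

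Beside the C1q chains, complement genes made mainly by hepatocytes did not move with them. Of 20 genes of the cascade 8 were higher and 12 lower in DKO, and 2 fell. C1s1, a protease of the C1 complex that C1q starts, fell, with means of 8.93 ± 0.15 and 8.52 ± 0.13 log2 CPM (mean ± SD, n = 6 per group; 75.4% of WT, limma adjusted p = 0.0323), and C8g, a chain of the membrane attack complex, fell to 78.3% of WT (adjusted p = 0.0354). Both calls were lost under quantile normalization (limma adjusted p = 0.161 and 0.129), without the mean trend (0.0630 and 0.0709) and, for each gene, without any 1 of 9 libraries (up to 0.0766 and 0.0842). C6, another part of that complex, had a log2 difference of 0.80 (limma adjusted p = 0.0844). Of 8 complement receptors 7 were higher and limma called 0 (4 at an unadjusted p below 0.05). Among them were Itgax (log2 difference 1.80, adjusted p = 0.0595), Itgb2 (0.83, adjusted p = 0.0701) and C3ar1, the C3a receptor, which did not overlap between the groups (0.65, adjusted p = 0.0652).

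Of 15 other genes of scavenging and of the clearance of dying cells, 10 were higher in DKO and 1 fell. Colec12, a scavenger receptor with a collagen-like domain, fell, with means of 5.35 ± 0.14 and 4.87 ± 0.14 log2 CPM (mean ± SD, n = 6 per group; 71.6% of WT, limma adjusted p = 0.0177) with no overlap of the groups. Lrp1, an endocytic receptor abundant in hepatocytes, and Timd2, a ferritin receptor related to Timd4, had log2 differences of -0.32 and -0.33 (limma adjusted p = 0.107 and 0.117). At an unadjusted p below 0.05, 4 genes of this list were higher and 4 lower in DKO. Among the higher were Stab2, a hyaluronan receptor of sinusoidal endothelium, and Axl, a receptor for dying cells, named after their values were seen (log2 differences 0.34 and 0.47, limma adjusted p = 0.137 and 0.246).

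**Figure D5:**
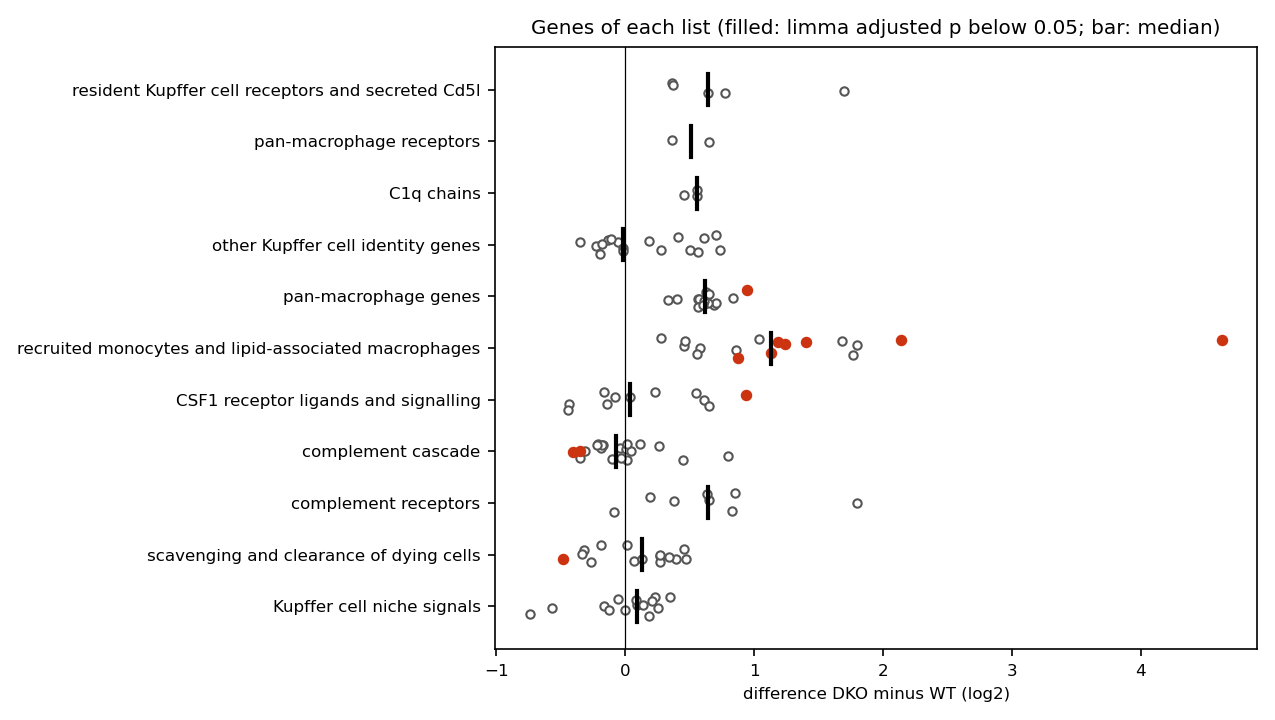
Difference of DKO minus WT (log2) for every measured gene of each list, filled where the limma adjusted p was below 0.05, with the median of the list as a bar. All members and all pan-macrophage genes lie above 0 and the filled points are most frequent among recruited monocyte and lipid-associated macrophage genes (7 of 17).

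Markers of other liver cells moved beside the members as follows, and their part in the members' differences was not tested. All 9 endothelial markers were higher in DKO, with a median log2 difference of 0.19 and a summed level of 257.8 to 299.6 CPM in WT and 259.7 to 352.3 in DKO. All 8 stellate cell and fibroblast markers were higher (median 0.37; 255.1 to 352.6 CPM against 339.1 to 473.3). Of 5 measured genes listed for dendritic cells (Flt3, Clec9a, Zbtb46, H2-Ab1 and Cd74) 4 were higher (median 0.69, with 77.9 to 106.3 CPM against 106.1 to 385.1). That sum was not divided by gene or by cell type, so it is no measure of dendritic cells. The 2 neutrophil markers measured summed to 2.06 to 5.36 CPM in WT and 3.82 to 7.68 in DKO, and the 3 lymphocyte markers to 2.58 to 5.17 and 2.45 to 5.08. Limma called 0 genes of these 5 lists, with 14 at an unadjusted p below 0.05, each higher in DKO. Of 4 measured cholangiocyte markers 3 were higher and 1 rose, and the summed level did not overlap, at 19.4 to 31.2 CPM in WT and 32.4 to 61.8 in DKO. The gene that rose was Spp1, osteopontin, which is also among the 7 genes that rose in the list of recruited monocytes and lipid-associated macrophages. Of 7 hepatocyte markers 5 were lower (median -0.17), and 1, Asgr1, fell (limma adjusted p = 0.0452). In WT 1 the endothelial sum was 267.2 CPM, within the range of the other controls, whereas the sum of the 5 resident Kupffer cell genes was 324.0 against at most 252.3 in them. WT 1 was not high in macrophage genes alone. It also exceeded the other controls in the summed complement cascade (18857 CPM against at most 15173). The sum of the listed complement receptors was likewise highest in WT 1 among controls (983.7 CPM against at most 713.6). Little of that sum came from Itgb2, C3ar1 or Itgax, which measured 3.53, 1.22 and -0.29 log2 CPM in WT 1. The list also holds Calr, Cd93, Itgam, C5ar1 and C5ar2, and which of them carried the sum is not shown here. For C3ar1, WT 1 was the lowest control.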

How the data were processed

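Polyadenylated RNA of 12 mouse liver libraries was grouped by the genotype label. The authors deposited 1 table of log2 CPM, filtered and normalized between libraries per the name of the file. The sources used here do not state the filter, the added count or the scaling factors. Per the submitters' processing notes, kallisto 0.46.2, limma, edgeR and the build GRCm39 (mm39) were used, with no roles stated. Of 12285 rows, 1 had no name (0.0075% to 0.0148% of CPM) and was left out. CPM summed to 906047 to 1088119 per library; read depth is unknown, so no counting interval is given. Libraries correlated at r of 0.92 to 0.97, and none was a duplicate.

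The main test was limma 3.58.1 under R 4.3.3 (mean trend, 2-sided, 6 against 6 libraries, Benjamini-Hochberg over 12284 genes, call at an adjusted p below 0.05, for which "rose" and "fell" are used). Intervals are 95% intervals of that fit. The same fit was run on log2 ratios to Adgre1. Exact permutation tests were 2-sided over all 924 divisions, with a smallest possible p of 0.00216. The labels do not say that libraries are separate mice, so p-values measure the spread between libraries. The fit was tested on simulated data. Figures were drawn with matplotlib 3.10.9.

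The members and lists were chosen with earlier results of these data known. Named genes were the members, Acly and Acss2, the 3 smallest p of each list, the 5 genes most like the members, and those marked as named after their values were seen; cell type markers such as Alb and Asgr1 and the ligand Csf1 were also named in this way. Some genes of this rule are not reported here. Alternatives were no mean trend, robust limma, log2(CPM + 1), quantile normalization, subtraction of library medians, a filter at a mean of 1 log2 CPM, the replicate number as a block and each library left out.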

Additional observations from a re-analysis of the deposited data

Results flagged for a closer look

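Among the 10 members in 2 groups, 1 of 20 sets of 6 libraries held a value far from the others, where chance gives about 1 in 20. Timd4 in the library WT 1 was 2.94 log2 CPM, against 2.08 to 2.40 in the other 5 controls; the gap to the nearest was over the 95% critical value of 0.625 of the group's range.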

How the results depend on the processing

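All 10 members stayed higher in DKO under each of the 7 changes of processing and without each of the 12 libraries, and the median of all genes moved by less than 0.1 under each. The calls depended on the libraries. Without 1 library the number of genes called ran from 92 to 373, and the log2 difference from 0.67 to 0.90 for Timd4, 1.50 to 2.06 for Marco, 0.55 to 0.77 for Cd5l, 0.54 to 0.78 for Adgre1, 0.48 to 0.68 for C1qa and 0.49 to 0.70 for C1qc; each of these 6 was called without WT 1, and Timd4 also without DKO 6. The number called was 138 without the mean trend and 109 with quantile normalization, against 214. With the replicate number as a block it was 397, and Timd4 was called (log2 difference 0.78, limma adjusted p = 0.0334). Same-numbered libraries deviated together at r over 0.1 in 2 of 6 pairs, not in all, so the numbers were not taken to pair the libraries. As a hint the other way, 4 of 6 WT libraries correlated best with their own number. The block also lowered the limma adjusted p of Acly from 0.0165 to 0.000105, so pairing remains possible. Relative to Adgre1, Marco ran from 0.89 to 1.28 without 1 library. The near-zero ratio of Cd5l ran from -0.052 to 0.041 and was 0.017 with log2(CPM + 1), and that of C1qa ran from -0.14 to 0.0023; the cause was not tested. Unknown depth leaves the counting error of the lowest member, Marco, unmeasured.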

Other observations

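Signals of the niche that maintains Kupffer cells showed no common direction. Of 14 measured genes 8 were higher and 6 lower in DKO, and limma called 0 (1 at an unadjusted p below 0.05). That gene was Dll1, a Notch ligand, with 1.76 to 3.13 log2 CPM in WT and 1.34 to 2.27 in DKO (log2 difference -0.74, SE 0.26, limma adjusted p = 0.161). Tgfb1, which encodes TGF-beta, and Bmp2 had log2 differences of 0.25 and 0.21 (limma adjusted p = 0.412 and 0.431).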
